A study of Arabidopsis thaliana with 6 samples.

Results

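The 8 genes described here are regulators and markers of plant senescence together with 2 enzymes of chlorophyll breakdown. They are a list of loci drawn up with earlier results of these data known, and no threshold on a measured value selected them: ORE1 (AT5G39610, symbol NAC6 in RefSeq), NAP (AT1G69490), WRKY53 (AT4G23810), WRKY6 (AT1G62300), SGR1 (AT4G22920, symbol NYE1 in RefSeq), NYC1 (AT4G13250), SAG12 (AT5G45890) and SAG13 (AT2G29350). All 8 were on the array, which held 34176 genes in all, and all 8 were among the 24456 genes that gave a signal strong enough to be tested.

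The samples were whole fertilised flowers of Arabidopsis thaliana at flowering stage 15, from wild-type plants and from the T-DNA mutant atnaod. The mutant carries an insertion in AT4G17830, called AtNAOD. Its enzyme, N-acetylornithine deacetylase, makes the polyamine precursor ornithine. Each genotype had 3 independent samples of about 100 flowers from 17 to 20 plants, and each sample was read on 1 single-colour array. The plants grew at 25 °C in days of 16 h light and nights of 8 h, and the labels name no other treatment or allele and do not say how many insertion lines were used.

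Senescence is the programmed last phase of a plant organ, in which chloroplasts are taken apart and their nitrogen is exported. Transcription factors of the NAC and WRKY families rise as leaves age and switch on enzymes that dismantle chlorophyll, proteases and nucleases. Sepals, petals and stamens of a fertilised flower also age and are shed, while the carpel and its seeds grow on. Polyamines are known to delay senescence when fed to detached leaves.

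A level is given throughout as log2 of the processed intensity of a gene's brightest probe minus the array's 75th percentile, so that 1 unit is a doubling. Levels of different probes cannot be compared, since each probe binds its target with its own strength. A change is the atnaod mean minus the wild-type mean on this scale, with its 95% interval, from a limma fit over all genes. Genes with a Benjamini-Hochberg adjusted p under 0.05 are referred to as called. Because whole flowers were measured, fewer cells of a type and less RNA per cell cannot be told apart.

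The AtNAOD transcript, which checks the labels, stood at 1.77, 1.62 and 1.69 in wild type 1 to 3 at its brightest probe. At that probe the signal was not well above background in any of the 3 mutant samples. A second, dimmer probe was above background on all 6 arrays and read -2.25, -2.40 and -1.82 in wild type, and -3.15, -3.54 and -3.46 in the mutant, a fall of 1.23 (limma adjusted p over all probes = 0.0286). The signal was thus lower in every mutant sample at both probes. The floral homeotic genes AP1, AP3, PI, SEP3 and AG were all above background on all 6 arrays, as the label of a flower requires. The 75th percentile of intensity was 1318 to 3007 in wild type and 1355 to 2845 in atnaod. Samples 1 and 2 of both genotypes shared a slide, and sample 3 of both lay on a second one.

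None of the 8 genes was called in limma, while 5.78% of all genes were. At an unadjusted p under 0.05 stood 2 of the 8, WRKY6 and NAP, against 25.8% of all genes. These 2 were also the only ones of the 8 whose 3 atnaod values all lay above the 3 wild-type values, an arrangement found in 15.3% of all genes, and no member showed the reverse. Non-overlapping groups in either direction occurred in 32.2% of all genes. Of the 8 changes 4 were above 0 and 4 below, while 48.8% of all genes lay above 0 and 51.2% below. Their median was 0.01, against -0.01 over all genes, and their median size regardless of direction was 0.15, against 0.17 over all genes.

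**Figure D1:**
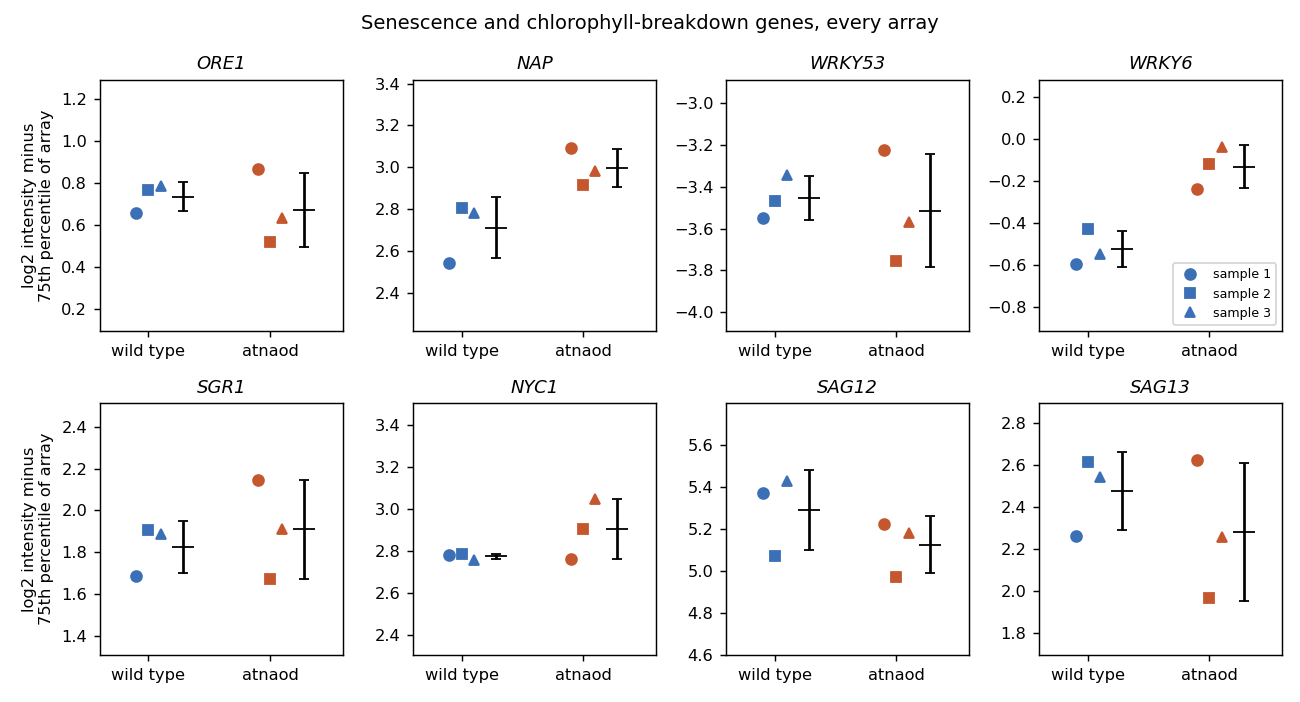
Level of each of the 8 genes on every array (vertical axes, log2 intensity relative to the 75th percentile, each spanning the same number of units) in wild type (blue) and atnaod (orange). The marker shape gives the sample number, and the black bar gives the mean and SD of 3 samples. WRKY6 and NAP are the genes whose groups do not overlap.

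WRKY6, a WRKY transcription factor of senescence, defence and phosphate starvation, had the largest change of the 8. Its levels in wild type 1 to 3 were -0.60, -0.43 and -0.55, and those in atnaod 1 to 3 were -0.24, -0.12 and -0.04. Every atnaod sample was above every wild-type sample. The difference of 0.39 (95% interval 0.17 to 0.62), or 1.31-fold, exceeded the SD of either genotype (0.09 and 0.10, n = 3), but its adjusted p of 0.0612 in limma missed the threshold. It passed with array weights (limma adjusted p = 0.0393) and when the prior variance was trended and robust (0.0334). Taken by slide, the first gave 0.33 and the second 0.51.

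A second WRKY6 probe was much dimmer, with an intensity between 58.6 and 166 over the 6 arrays. It was above background on all arrays and read -5.27, -4.39 and -4.49 in wild type, and -3.79, -4.10 and -3.69 in the mutant. Again the groups did not overlap. The change at this probe was 0.86 (0.29 to 1.43, limma adjusted p over all probes = 0.0926). With the normexp background correction it was 0.51 (adjusted p = 0.365), so that its size depended on how the background was removed. That refit of the dimmer probe was added after the data were seen. The brighter probe kept a change of 0.33 with normexp.

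WRKY6 is known to switch on the receptor kinase gene SIRK in senescing leaves and to repress PHO1, a gene of phosphate loading into the xylem. SIRK stood at -0.03 with a wide interval (-0.95 to 0.89) and PHO1 at 0.07 (-0.22 to 0.35). Neither passed the test.

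WRKY53, an early activator of leaf senescence, was dim at both probes and not called. Its intensity over the 6 arrays was 114 to 257 at the brighter probe and 73.9 to 171 at the other. Its level was -3.55, -3.47 and -3.34 in wild type, and -3.22, -3.76 and -3.57 in the mutant, so that atnaod 1 was the highest of the 6 samples and atnaod 2 the lowest. The change was -0.06 (-0.41 to 0.29, limma adjusted p = 0.830). The 2 probes of WRKY53 differed in sign, and the dimmer one gave 0.07 (-0.48 to 0.62), so no direction was seen.

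NAP is a NAC transcription factor named for its activation by the petal and stamen identity genes AP3 and PI, and it promotes senescence in leaves and fruits. Its level was 2.54, 2.81 and 2.78 in wild type, and 3.09, 2.91 and 2.98 in the mutant. The groups did not overlap, though the gap between wild type 2 and atnaod 2 was small. The change of 0.28 (0.03 to 0.54), or 1.22-fold, was not called (limma adjusted p = 0.155). Taken by slide, it was 0.33 and 0.20.

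The second probe of NAP read 1.12, 1.42 and 1.46 in wild type, and 1.64, 1.54 and 1.67 in the mutant. It gave nearly the same difference, 0.28 (0.01 to 0.56, limma adjusted p over all probes = 0.203). The 2 probes read the same RNA and are not independent samples. AP3 stood at -0.23 (-0.58 to 0.11) and PI at -0.03 (-0.44 to 0.38), and neither passed the test. SAG113, a protein phosphatase gene that NAP activates in leaves, stood at -0.02 (-0.26 to 0.21).

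ORE1, the NAC factor that drives age-dependent leaf death and is held down by the microRNA miR164 in young leaves, did not differ between the genotypes beyond the spread. Its level was 0.66, 0.76 and 0.78 in wild type, and 0.87, 0.52 and 0.63 in the mutant, with the highest and the lowest sample both in the mutant. The change was -0.06 (-0.33 to 0.20, limma adjusted p = 0.768). The interval leaves room for a rise of at most 1.15-fold or a fall of at most 1.26-fold. BFN1, a nuclease gene that ORE1 activates directly, stood at 0.08 (-0.19 to 0.36).

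SGR1 encodes the magnesium dechelatase that opens chlorophyll a breakdown, and its loss gives stay-green leaves. It read 1.68, 1.91 and 1.89 in wild type, and 2.15, 1.67 and 1.91 in the mutant. The atnaod values spanned the whole wild-type range. The change was 0.08 (-0.24 to 0.41, limma adjusted p = 0.747).

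NYC1, a chlorophyll b reductase that starts the conversion of chlorophyll b to a and the loss of light-harvesting complexes, was nearly constant in wild type. Its level was 2.78, 2.78 and 2.76 there and 2.76, 2.90 and 3.05 in atnaod. In the mutant 2 samples lay above all wild-type samples and the third lay among them. The change was 0.13 (-0.10 to 0.36, limma adjusted p = 0.453) at the brighter probe and 0.02 (-0.23 to 0.27) at the other.

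SAG12, a cysteine protease gene widely used as a marker of late leaf senescence, gave a strong signal in these flowers. The processed intensity of its brighter probe was 56690 to 124300 in wild type and 49137 to 89229 in atnaod, and it was saturated on none of the arrays. The level was 5.37, 5.07 and 5.43 in wild type, and 5.22, 4.97 and 5.18 in the mutant. The groups overlapped, with wild type 2 below 2 of the mutant samples. The change was -0.16 (-0.47 to 0.14, limma adjusted p = 0.468), and the second probe gave -0.21 (-0.51 to 0.09). At the brighter probe the interval reaches a fall of 1.38-fold.

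SAG13, a short-chain dehydrogenase gene that marks the onset of senescence and responds to stress, had the widest spread of the 8 in the mutant. It read 2.26, 2.62 and 2.54 in wild type, and 2.62, 1.97 and 2.26 in the mutant. Atnaod 1 lay beside the highest wild-type sample, atnaod 2 lay below all of them, and atnaod 3 lay just below the lowest, wild type 1. The change was -0.19 (-0.62 to 0.24, limma adjusted p = 0.554).

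**Figure D2:**
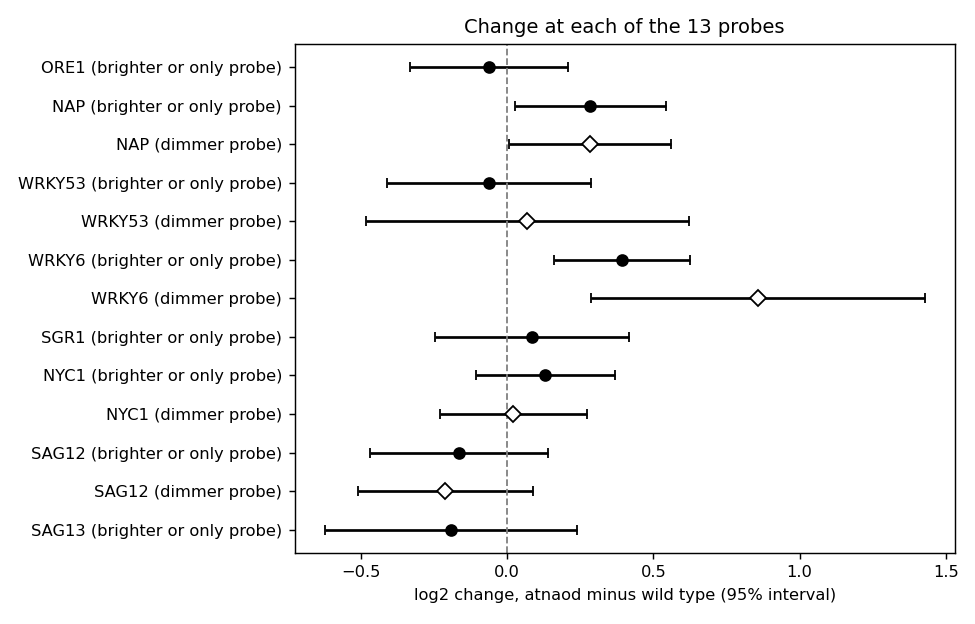
Change in atnaod against wild type at each of the 13 probes of the 8 genes (horizontal axis, log2, with 95% intervals from the fit over all probes). Filled circles are a gene's brighter or only probe and open diamonds the dimmer one. The intervals of both WRKY6 probes (0.39 and 0.86) and both NAP probes (0.28 and 0.28) lie above 0, and all others cross it.

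Across the brightest probes of the 8 genes, the ends of the intervals reached from -0.62 to 0.62, so that a 2-fold change lies outside the interval of each of these probes. It lies inside that of the dimmer WRKY6 probe (0.29 to 1.43). A p that missed the threshold does not show equal levels. Taken by slide, the change was -0.02 and -0.15 for ORE1, 0.11 and 0.03 for SGR1, and 0.05 and 0.29 for NYC1. SAG12 gave -0.12 and -0.25, SAG13 -0.15 and -0.29, and WRKY53, the only one of the 8 that changed sign between slides, 0.02 and -0.22.

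Within a genotype most of the 8 genes ranked the samples alike. In 6 of them, ORE1, NAP, WRKY53, SGR1, SAG12 and SAG13, atnaod 1 was the highest and atnaod 2 the lowest of the 3 mutant samples, an order that 16.3% of all genes showed. In wild type, sample 1 was the lowest for 6 of the 8, ORE1, NAP, WRKY53, WRKY6, SGR1 and SAG13, as it was for 39.9% of all genes. The median SD was 0.161 in atnaod and 0.114 in wild type for the 8 genes, against 0.123 and 0.143 over all genes. These orders were noticed in the data and were not tested. Leaving out atnaod 2 moved the change of ORE1 to 0.01 and that of WRKY53 to 0.06, and leaving out atnaod 1 moved that of SGR1 to -0.03.

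Genes whose 6 values most resembled those of a member were sought among 9252 others with a locus and a symbol. WRKY53 was most like PDE337 (Pearson r over the 6 arrays 0.987) and WRKY70 (0.981). NAP was most like PRA1.F1 (0.994) and WRKY40 (0.993). ORE1 stood nearest to BAP2 (0.998), SAG13 to NIMIN-2 (0.997), SGR1 to MYB31 (0.995), NYC1 to EXPA24 (0.995), SAG12 to PAB4 (0.993) and WRKY6 to UBC28 (0.998). With 6 arrays such values are common: 170 genes exceeded an r of 0.95 with WRKY6, 73 with NAP and 9 with SAG12.

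The rest of the chlorophyll breakdown pathway showed no called change. All 12 of its genes were tested. Against 5.78% and 25.8% of all genes, limma called 0 of them and 0 had an unadjusted p under 0.05. Their median was 0.10, with 9 above 0, against 48.8% of all genes. PAO, the oxygenase that opens the chlorophyll ring, stood at 0.03 (-0.20 to 0.26) and PPH, the phytol-cleaving hydrolase before it, at 0.11 (-0.10 to 0.33). RCCR, the reductase of the ring-opened product, had the lowest p of the list at -0.22 (-0.45 to 0.01, limma adjusted p = 0.208), and its 3 atnaod values lay below the 3 of wild type. SGR2, the paralogue of SGR1, stood at -0.19 (-0.42 to 0.05). Next came CLH2, a chlorophyllase, at 0.17 (-0.05 to 0.39) and MES16, an esterase acting on intermediates after ring opening, at 0.19 (-0.07 to 0.45). For both the 3 atnaod values lay above the 3 of wild type.

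**Figure D3:**
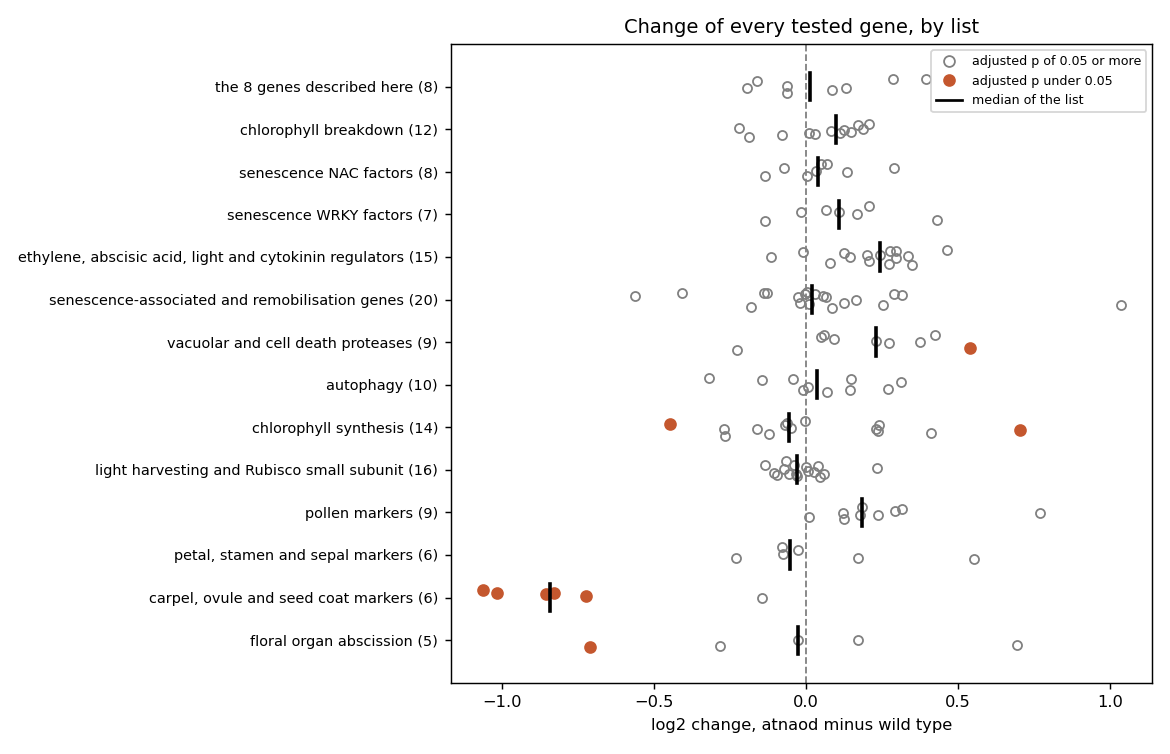
Change of every tested gene (horizontal axis, log2, atnaod minus wild type) in the 8 genes and in 13 other lists, with the number of genes in brackets. Open grey circles were not called, filled orange circles were, and black bars are list medians. The 8 genes spread around 0, and 9 of 12 chlorophyll breakdown genes lie above it. The carpel, ovule and seed coat markers lie lowest with a median of -0.84.

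Among other NAC and WRKY factors of senescence 0 of 8 and 0 of 7 were called by limma, against 5.78% of all genes. Against 25.8% of all genes, 0 NAC genes and 1 WRKY gene stood at an unadjusted p under 0.05. That gene was WRKY57, a repressor of jasmonate-induced senescence, at 0.43 (0.14 to 0.72, limma adjusted p = 0.0872). Its 3 atnaod values lay above the 3 of wild type. NAC019 stood at 0.29 (-0.09 to 0.66), and VNI2, a NAC factor that slows leaf ageing, at -0.13 (-0.41 to 0.15). ORS1, a close relative of ORE1, stood at 0.13 (-0.32 to 0.59). The interval of JUB1, a longevity factor above background in 2 of 3 atnaod samples, was too wide to inform (-1.55 to 1.56).

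Regulators of hormone and light signalling that feed into senescence lay mostly above 0 without a call. Of 15 genes 13 lay above 0, 6 had an unadjusted p under 0.05 and limma called 0. Over all genes these shares were 48.8%, 25.8% and 5.78%. The median was 0.24, and in 7 the 3 atnaod values lay above the 3 of wild type, against 15.3% of all genes. ABI5, a transcription factor of abscisic acid signalling, stood at 0.46 (0.16 to 0.76, limma adjusted p = 0.0787). It passed without atnaod 1 (0.59, adjusted p = 0.0286). ABF2, of the same family, stood at 0.35 (0.09 to 0.60). The cytokinin receptor gene AHK3, which delays leaf senescence, stood at 0.33 (0.08 to 0.59), and MEKK1, whose kinase binds the WRKY53 promoter, at 0.29 (0.05 to 0.54). EIN3, the ethylene response factor that activates ORE1 and NAP, stood at 0.20 (0.00 to 0.40, limma adjusted p = 0.191).

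Senescence-associated and remobilisation genes also gave 0 calls in limma among 20 tested, with 4 at an unadjusted p under 0.05 and a median of 0.02. Over all genes 5.78% were called and 25.8% had such a p. RNS3, a ribonuclease gene, was lowest at -0.56 (-0.89 to -0.24, limma adjusted p = 0.0592). RNS1, another ribonuclease gene, stood at 0.32 (0.07 to 0.57), and both had non-overlapping groups, as had 32.2% of all genes. ERD1, a chloroplast protease regulator, stood at 0.25 (0.03 to 0.47) and SAG21 at 0.29 (0.00 to 0.57).

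SEN1, a gene induced by darkness and low sugar, was read at -0.66, -0.56 and -0.57 in wild type, and at 1.63, 0.07 and -0.39 in the mutant. Its difference of 1.03 (-0.07 to 2.14, limma adjusted p = 0.221) amounted to 1.46 among the arrays of slide 1 and 0.19 among those of slide 2, and atnaod 1 stood far above the other mutant samples. In 6 of the 8 genes atnaod 1 was also the highest mutant sample. This gene falls outside the rule for naming and was chosen after its values were seen.

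Among 9 genes of vacuolar and cell death proteases 1 was called, against 5.78% of all genes. The vacuolar processing enzyme gene VPE beta, known from seeds, read -0.23, -0.01 and -0.06 in wild type, and 0.25, 0.48 and 0.58 in the mutant. All mutant samples were higher, and it rose by 0.54 (SE 0.118, limma adjusted p = 0.0481), with 0.49 and 0.64 on the 2 slides. The call was lost without wild type 1, 2 or 3 (adjusted p = 0.0878, 0.122 and 0.120) and without atnaod 2 or 3 (0.169 and 0.138). CEP1 stood at 0.37 (adjusted p = 0.0736), RD21A at 0.42 (0.106) and RD19A at 0.27 (0.164), all papain-type proteases like SAG12 and all with non-overlapping groups. RD21A passed the threshold under quantile normalization (limma adjusted p = 0.0418) and in the fit blocked by slide (0.0433). The list's median was 0.23, with 8 above 0, against 48.8% of all genes. In 4 of the 9 all atnaod values lay above all wild-type values, against 15.3% of all genes. Of 10 autophagy genes limma called 0 and 1 had an unadjusted p under 0.05, against 5.78% and 25.8% of all genes. That 1 was ATG8I at -0.32 (-0.60 to -0.04), and the list median was 0.04.

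Counted over all 81 genes of these 7 lists, 1 was called, or 1 higher and 0 lower, against 2.72% and 3.06% of all genes. At an unadjusted p under 0.05 stood 16 of the 81, and 59 lay above 0, against 25.8% and 48.8% of all genes. Their median was 0.08. The lists were chosen with earlier results of these data known and are described, not tested, as groups.

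The order of the samples seen in the 8 genes also appeared in some of these lists. Against the wild-type mean, the median of the senescence WRKY factors was 0.41 in atnaod 1, -0.02 in atnaod 2 and 0.11 in atnaod 3. Among the NAC factors it was 0.14, -0.11 and 0.04, and among the senescence-associated genes 0.15, -0.10 and 0.05. The 8 genes themselves gave 0.19, -0.18 and -0.01. The hormone and light regulators (0.21, 0.22 and 0.20) showed no such difference between samples. Proteases (0.30, 0.14 and 0.24) and chlorophyll breakdown (0.09, 0.04 and 0.07) followed the same order, with all 3 medians above 0. For autophagy (0.07, -0.01 and 0.08) atnaod 3 was the highest. Gene by gene, 29.6% of the 81 had atnaod 1 highest and atnaod 2 lowest, against 16.3% of all genes.

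**Figure D4:**
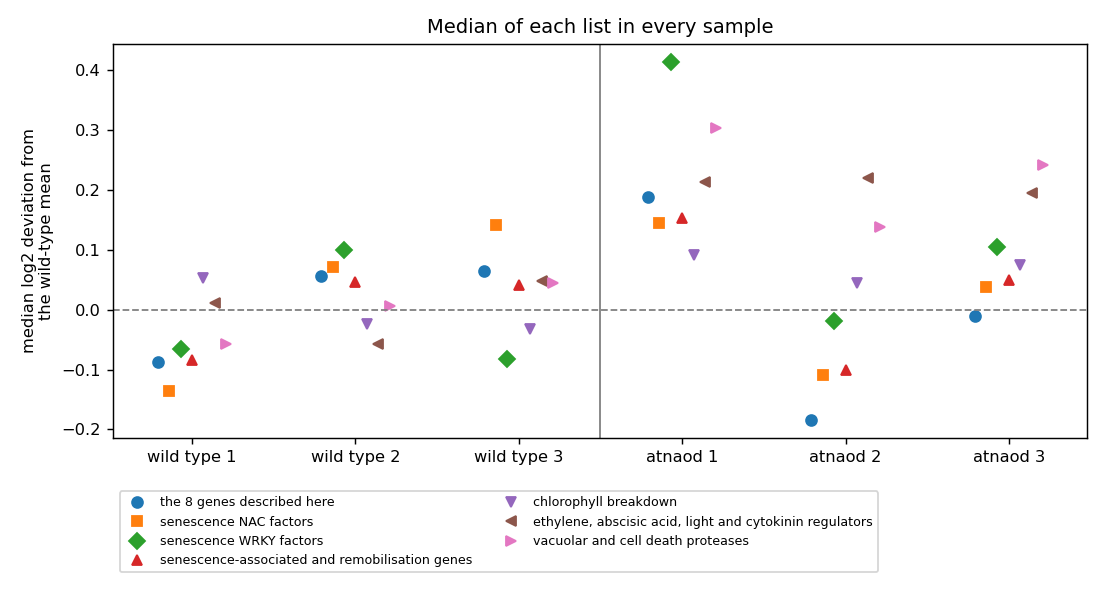
Median log2 deviation of 7 lists from the wild-type mean (vertical axis) in each of the 6 samples (horizontal axis). In atnaod 1 all lists lie above 0, in atnaod 2 the 8 genes (-0.18), the NAC factors (-0.11), the senescence-associated genes (-0.10) and the WRKY factors (-0.02) lie below it, and the hormone and light regulators stay near 0.2 in all 3 mutant samples.

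On the other side of chlorophyll turnover, 2 of 14 chlorophyll synthesis genes were called, against 5.78% of all genes. The 2 went in opposite directions, and the list's median was -0.06. HEMA1, for the glutamyl-tRNA reductase at the start of the pathway, read 2.81, 2.72 and 2.43 in wild type, and 3.50, 3.26 and 3.32 in the mutant. Every mutant sample was above every wild-type sample, and it rose by 0.70 (SE 0.128, limma adjusted p = 0.0347), with 0.61 and 0.89 on the 2 slides. GLK1, a transcription factor of chloroplast development, read -0.46, -0.62 and -0.40 in wild type, and -0.89, -1.04 and -0.88 in the mutant. It fell by 0.45 (SE 0.0983, limma adjusted p = 0.0486), with -0.43 and -0.49 on the 2 slides. Both calls were lost when any 1 of the 6 samples was left out (adjusted p from 0.0507 to 0.115 for HEMA1 and from 0.0684 to 0.180 for GLK1).

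CAO, the enzyme that makes the chlorophyll b on which NYC1 acts, stood at 0.41 (0.17 to 0.65, limma adjusted p = 0.0632), and passed without atnaod 1 (adjusted p = 0.0475). PORC, a light-dependent enzyme of chlorophyll synthesis, stood at -0.27 (-0.51 to -0.03). Limma called 0 of 16 genes of light harvesting and the Rubisco small subunit, against 5.78% of all genes. In this list 0 had an unadjusted p under 0.05, against 25.8% of all genes, and the median was -0.03. The largest was LHCA3 at 0.23 (-0.16 to 0.63). These genes belong to near-identical families whose probes may share targets, so single members are uncertain.

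Markers of other floral tissues give the setting of these values. Of the 6 carpel, ovule and seed coat markers 5 were called lower, against 3.06% of all genes. The marker lists too were chosen with earlier results of these data known, so such counts are described, not tested. MYB5 fell by 0.83, TT2 by 1.02, STK by 0.73, BAN by 1.06 and TTG2 by 0.86 (limma adjusted p from 0.0233 to 0.0371). These 5 mark the ovule or seed coat. AG, which marks the carpel and also the stamen, was not called, at -0.15 (-0.37 to 0.08). The summed level of all 6, in multiples of the array's 75th percentile, was 15.8 to 16.7 in wild type and 8.49 to 11.2 in atnaod. Such a sum rests mostly on a list's brightest probes, here those of STK and BAN. All 5 calls held without atnaod 1, and that of MYB5 also without wild type 1, and they were lost when any other single sample was left out (limma adjusted p from 0.0527 for STK to 0.137 for TTG2). They were also lost with normexp (adjusted p from 0.0526 to 0.0702) and with the deposited values (0.0596 to 0.0837). Of the pollen markers 9 of 9 lay above 0, against 48.8% of all genes, with a median of 0.18. Against 5.78% and 25.8% of all genes, limma called 0 of them and 1 had an unadjusted p under 0.05. They summed to 18.0 to 21.6 in wild type and 15.8 to 30.6 in atnaod, lowest in atnaod 1. VEX1, above background in 1 of 3 wild-type samples, had the lowest p of them, at 0.77 (limma adjusted p = 0.0669), a size that rests on wild-type signals near background. It was 0.23 with normexp and 0.31 with the deposited values (adjusted p = 0.661 and 0.638), and it passed without atnaod 1 (0.0316) and with array weights (0.0210). VEX1 met the signal filter only through the atnaod samples. Its p values and its place in the count above 0 therefore rest partly on that filter. Against 5.78% and 25.8% of all genes, petal, stamen and sepal markers gave 0 calls among 6, with 1 at an unadjusted p under 0.05. These markers summed to 27.5 to 40.2 in wild type and 35.2 to 39.8 in atnaod, lowest in wild type 1. No marker of these 3 lists was below background on all arrays. Their part in the values of the 8 genes was not tested.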

How the data were processed

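RNA of 6 samples was labelled with Cy3 from 200 ng, per the labels, and read on 1 array each. The scanner values are intensity, per the file headers from Agilent Feature Extraction 10.5.1.1 (10.5 per the submitters' processing notes), background-subtracted and detrended within each array but not scaled between arrays. The deposited values hold intensity too. In each column they were found to be a fixed multiple of each probe's median spot signal, within 1% for at least 99.98% of probes. That signal has had no background subtracted, unlike the processed intensity. Probe sequences were not analysed here.

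Outlier spots (2 to 35 on an array) were dropped, spots of 1 probe averaged on the log2 scale, and each array's 75th percentile subtracted. A probe was tested where all 3 arrays of a genotype had it well above background (32495 of 43603 probes). A gene took its brightest tested probe. The comparison used limma 3.58.1 (R 4.3.3 with data.table, version 1.17.8) with lmFit and eBayes, two-sided, 3 against 3. The script was tested on simulated data. Arrays give no read depth, and their number limits the precision.

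The replicate numbers come from the labels. The deviations of same-number samples correlated at 0.190, 0.111 and 0.535. Samples of different number on slide 1 correlated at 0.215 and 0.105, and those on different slides at -0.354 to -0.190. The pair at 0.535 was alone on slide 2, so that pairing by number and a shared slide cannot be told apart there. Fits with replicate number and with slide as a block stand among the alternatives.

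The members and lists were chosen with earlier results of these data known. The rule names the 8 genes, AtNAOD, from every other list up to 4 genes of lowest p, any further called gene of these lists, and the 2 genes most like each member. PAO, PPH and the other known partners or steps outside that rule were named for their roles. Gene symbols came from RefSeq annotation of TAIR10.1, where all 8 loci were found. Positions are not given, as the array was designed on an older build.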

Additional observations from a re-analysis of the deposited data

How the results depend on the processing

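Changes of the 8 genes were recomputed under 18 alternatives. WRKY6 kept its sign in all (0.33 to 0.62) and was called in 2, with the robust, trended prior (0.39, adjusted p = 0.0334) and with array weights (adjusted p = 0.0393), so that the number of members called, 0, became 1 in each of these 2 fits. Its adjusted p ranged from 0.0334 to 0.325. NAP (0.20 to 0.33), NYC1, SAG12 and SAG13 also kept their sign without a call. With 1 sample left out, ORE1 ran from -0.16 (without atnaod 1) to 0.013 (without atnaod 2), SGR1 from -0.034 (without atnaod 1) to 0.20, and WRKY53 from -0.21 to 0.058 (without atnaod 2). SGR1 was -0.025 with array weights. WRKY53 turned to 0.0507 with normexp and 0.0501 with the deposited values, both the change of its other probe, to 0.0032 with the mean over probes and to 0.019 on the first slide alone. Between 2 and 5 members lay below 0 in fits that left out 1 sample, against 4 with all. Signs also turned, far from the threshold, for ORS1 (-0.026 with array weights, and -0.075 to 0.25 with 1 sample left out), ATAF1 (-0.018, and -0.015 to 0.094), WRKY55 (-0.13 to 0.47 with 1 sample left out) and WRKY70 (-0.43 to 0.12). The cause was not tested.

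The number of genes called overall was 1414 (665 higher, 749 lower). It was 243 (102 and 141) with normexp, 12 (5 and 7) with the deposited values, 22 (9 and 13) when dim probes were kept, 2259 (1032 and 1227) with a trended and robust prior, 3487 (1510 and 1977) with array weights, 2124 (999 and 1125) with slide as a block and 13 (6 and 7) on the first slide alone, which has 4 arrays. Leaving out 1 sample gave 15 to 1552 calls, 6 to 666 higher and 7 to 886 lower. With the replicate block 1317 were called, 0 of them members (WRKY6 adjusted p = 0.0607), and among the other genes refitted with it (AtNAOD, the genes of lowest p in each list and further called genes of the lists) the block changed the call of PGAZAT alone (0.69, adjusted p = 0.0441). Genes named only for their likeness or role were not refitted. AtNAOD was lower in all 18 alternatives and called in 16. Without wild type 2 or 3 it missed the threshold (-1.35 and -1.06, limma adjusted p = 0.0876 and 0.0808). In those fits its otherwise dimmer probe had the higher mean and was taken. A fit that leaves out a sample can thus take another probe of a gene. HEMA1, GLK1 and VPE beta lost their calls with normexp (adjusted p = 0.0660, 0.0916 and 0.0756) and with the deposited values (0.0762, 0.0963 and 0.0882), as did MYB5, TT2, STK, BAN and TTG2 in both. All 8 and IDA were lost too when dim probes were kept (adjusted p from 0.0903 to 0.132) and on the first slide alone (0.138 to 0.248), and GLK1 and VPE beta with the mean over probes (0.0511 and 0.0505). CAO, ABI5 and RNS3 passed with the trended and robust prior (0.0337, 0.0413 and 0.0282) and with array weights (0.0245, 0.0324 and 0.0186). In 1 alternative each, CEP1 passed with the trended and robust prior (limma adjusted p = 0.0405) and ATG8I with array weights (0.0396). The pollen marker ACT12 passed only without atnaod 1 (0.0484).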

Other observations

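Floral organ abscission, which follows senescence of the outer organs, had 1 called gene of 5, against 5.78% of all genes. IDA, the peptide gene that triggers shedding, read -3.13, -2.92 and -3.05 in wild type, and -3.71, -3.78 and -3.73 in the mutant, with no overlap. It fell by 0.71 (SE 0.0908, limma adjusted p = 0.0199), and by 0.48 with normexp, where the call was lost (adjusted p = 0.0812), as it was with the deposited values (-0.51, adjusted p = 0.0971). The call was also lost without wild type 2 or 3 (adjusted p = 0.0876 and 0.0852) and without atnaod 2 or 3 (0.101 and 0.0543). Its receptor genes HAE and HSL2 stood at -0.03 (-0.36 to 0.30) and 0.17 (-0.11 to 0.45). PGAZAT, a polygalacturonase gene of the abscission zone, stood at 0.69 with a wide interval (-0.48 to 1.87), and passed the threshold once replicate number was a block (adjusted p = 0.0441). QRT2, another polygalacturonase gene, stood at -0.28 (-0.90 to 0.33).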
